A study of Mus musculus with 6 samples.

Results

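The genes described here are 29 genes of cholesterol and fatty acid synthesis, taken by name from a deposited table of 23358 entries. All 29 were found, and all 29 were among the 16280 genes with enough counts to be tested. Of these, 19 belong to the sterol side (16 enzymes from Hmgcs1 to Ebp, with Sc4mol the older name of Msmo1, and Insig1, Srebf2 and Stard4) and 10 to the fatty acid side (9 enzymes and the regulator Srebf1). The RNA came from immature mouse chondrocytes, cartilage cells of the hip and knee joint ends, taken at post-natal day 5 from mice whose strain is given as C57BL/6 - mix. The cells were wildtype or Ezh2-deficient and were cultured as micromasses, high-density spots in which cartilage cells deposit matrix. All shared 1 medium, which held serum, insulin, transferrin, selenium, ascorbic acid and β-glycerol phosphate. RNA was taken at day 3, 7 or 14, and each genotype gave 1 library per day, 6 libraries in all. The titles read Ezh2_cKO, but which Cre removed Ezh2, in what share of cells, and how many animals went into a library are not given in the sources used here. Ezh2 is a histone methyltransferase of a Polycomb repressive complex.

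Cholesterol is made from acetyl-CoA through mevalonate, isoprenoids, squalene and lanosterol, and fatty acids are made from the same acetyl-CoA through malonyl-CoA. Transcription of both pathways is driven by the SREBP factors, with the product of Srebf2 acting mainly on sterol genes and the product of Srebf1 mainly on fatty acid genes. When cell sterols are high, Insig proteins hold the SREBP precursor in the endoplasmic reticulum, and when sterols fall the factor is processed and moves to the nucleus. SREBP binds sterol elements and E-boxes in promoters and commonly acts beside NF-Y, a factor that binds CCAAT boxes. In growing cartilage sterol synthesis is needed for normal bone growth, and inherited defects of several of these enzymes cause skeletal malformation.

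Promoter sequences are shown because these elements can be read in them. The RefSeq promoters used (GRCm38.p6, the mm10 build) run from 250 bases before to 50 bases after each start. Of the 29 genes, 22 had an entry (15 sterol, 7 fatty acid), and Fdps, Fdft1, Sqle, Stard4, Scd1, Scd2 and Fads1 had none. CCAAT, read on both strands, was in at least 1 promoter of 15 of 15 sterol genes and of 4 of 7 fatty acid genes (Srebf1, Fasn, Acly and Acss2), and in 41.1% of the 27025 genes with a promoter. The 33 boxes of the sterol genes had a median position 60 bases before the start, and 23 lay within the last 150 bases before it. The sterol element core TCACNCCAC was in Hmgcs1 alone of the 22 and in 1.44% of all genes. The E-box CACGTG was in Hsd17b7, Dhcr7 and Insig1 and in 8.09% of all genes. Each sequence printed here is 300 bases on the strand of its gene, with the matches in capitals (CCAAT, or ATTGG where the box is on the other strand, the sterol element core and the E-box). Hmgcs1 (chr13:119690101-119690400, plus strand) is shown for its sterol element core. The other 5 were picked after their values were seen, as examples of the genes with the largest differences described further on. They are Insig1 (chr5:28071162-28071461, plus strand), Nsdhl (chrX:72918271-72918570, plus strand), Sc4mol (chr8:64733529-64733828, minus strand), Idi1 (chr13:8885356-8885655, plus strand) and, for the fatty acid side, Fasn (chr11:120824498-120824797, minus strand).
Hmgcs1: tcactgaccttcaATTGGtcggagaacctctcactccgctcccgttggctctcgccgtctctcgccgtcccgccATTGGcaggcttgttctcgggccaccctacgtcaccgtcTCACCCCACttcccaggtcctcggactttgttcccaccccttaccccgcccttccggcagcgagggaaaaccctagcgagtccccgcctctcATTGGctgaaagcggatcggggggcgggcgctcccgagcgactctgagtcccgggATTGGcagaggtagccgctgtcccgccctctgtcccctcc
Insig1: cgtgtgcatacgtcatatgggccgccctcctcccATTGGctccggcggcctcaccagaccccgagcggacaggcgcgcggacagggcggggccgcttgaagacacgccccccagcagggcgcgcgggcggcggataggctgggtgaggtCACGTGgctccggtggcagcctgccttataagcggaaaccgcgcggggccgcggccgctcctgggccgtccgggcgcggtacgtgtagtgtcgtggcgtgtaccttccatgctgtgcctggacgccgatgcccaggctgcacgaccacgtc
Nsdhl: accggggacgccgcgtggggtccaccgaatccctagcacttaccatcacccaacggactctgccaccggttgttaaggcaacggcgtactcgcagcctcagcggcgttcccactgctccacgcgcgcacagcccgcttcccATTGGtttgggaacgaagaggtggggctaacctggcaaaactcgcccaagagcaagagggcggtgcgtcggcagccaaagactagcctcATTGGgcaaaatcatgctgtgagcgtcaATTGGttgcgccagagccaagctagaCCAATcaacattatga
Sc4mol: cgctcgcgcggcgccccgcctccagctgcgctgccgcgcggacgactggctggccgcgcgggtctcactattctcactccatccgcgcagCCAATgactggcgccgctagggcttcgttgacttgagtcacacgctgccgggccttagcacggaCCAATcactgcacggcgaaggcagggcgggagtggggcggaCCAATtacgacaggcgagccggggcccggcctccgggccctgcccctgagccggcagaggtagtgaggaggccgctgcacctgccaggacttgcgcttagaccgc
Idi1: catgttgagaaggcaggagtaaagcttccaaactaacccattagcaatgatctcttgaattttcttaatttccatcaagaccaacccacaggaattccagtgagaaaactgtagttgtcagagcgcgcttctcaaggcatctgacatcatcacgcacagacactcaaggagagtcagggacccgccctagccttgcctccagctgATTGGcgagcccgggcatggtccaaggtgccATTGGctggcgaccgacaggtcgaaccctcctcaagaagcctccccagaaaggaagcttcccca
Fasn: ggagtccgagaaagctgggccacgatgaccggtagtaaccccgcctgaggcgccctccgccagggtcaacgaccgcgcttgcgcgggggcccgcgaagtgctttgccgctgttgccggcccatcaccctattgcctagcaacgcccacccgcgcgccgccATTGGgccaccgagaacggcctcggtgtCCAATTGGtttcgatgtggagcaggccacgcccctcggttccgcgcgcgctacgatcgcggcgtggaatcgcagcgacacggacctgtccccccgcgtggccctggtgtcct
In Fasn, CCAAT and ATTGG overlap and were counted as 2 boxes. A match describes the letters of these windows and was not tested as a binding site. Each element was searched in 1 form only, so other forms, or elements outside the windows, would be missed.

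Library totals ran from 51985214 to 79323302 counts. Levels are given as CPM, counts per 1000000 of a library total after TMM scaling (trimmed mean of M values), and 3 sequenced fragments corresponded to between 0.0763 and 0.114 CPM. Ezh2 itself was 24.7 CPM in wildtype and 14.7 CPM in Ezh2-deficient cells at day 3, 40.2 and 23.0 CPM at day 7, and 27.9 and 17.6 CPM at day 14. The Ezh2-deficient library had the lower level every day, but the gene did not pass the threshold of an adjusted p of 0.05 (log2 difference -0.74 ± 0.08, SE, edgeR adjusted p = 0.0729). The labelled cell type was seen in its markers, of which 15 summed to between 28380 and 151768 CPM, with none at 0 in any library. Their sum was lower at day 14 than at day 3 in both genotypes, while the summed levels of the osteoblast, macrophage and fibroblast markers were higher. In bulk RNA, fewer cells of a type and less RNA per cell cannot be told apart.

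The sterol genes crossed over between the genotypes with time. At day 3 all 19 were higher in the Ezh2-deficient library, with a median log2 ratio of 0.45. At day 7 the genotypes were close, with 15 genes higher, 4 lower and a median of 0.08. At day 14 all 19 were lower in the Ezh2-deficient library, with a median of -0.70. The fatty acid genes followed another course: 9 of 10 were higher in Ezh2-deficient cells at day 3 (median 0.14), 10 of 10 at day 7 (median 0.44) and 4 of 10 at day 14 (median -0.17). Among all 16280 genes, 49.4%, 49.1% and 49.4% were higher on the 3 days.

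Single days allowed no test, with 1 library per genotype, and genes were counted by size: at least 1.5-fold apart, at least 1 CPM in the higher library, and a ratio whose exact 95% counting interval did not include 1. Those intervals cover counting error only. By that rule 4 sterol genes (Idi1, Lss, Nsdhl and Insig1) and 2 fatty acid genes (Fasn and Acss2) were higher in Ezh2-deficient cells at day 3, as were 4.35% of all genes. At day 7 no sterol gene was past the rule, and 4 fatty acid genes (Fasn, Acaca, Acss2 and Scd1) were higher, as were 5.00% of all genes. At day 14, 13 of the 19 sterol genes and Elovl6 were lower, as were 6.60% of all genes, and Scd1 was the 1 gene of the 29 that was higher, as were 5.33% of all genes. The sterol genes under the rule at day 14 were Mvk, Pmvk, Cyp51, Dhcr7, Ebp and Srebf2, all of them lower by less than 1.5-fold. The difference fell from day 3 to day 7 and again from day 7 to day 14 in 18 of 19 sterol genes, with Srebf2 the exception, in 4 of 10 fatty acid genes and in 22.3% of all genes. A gene that was higher at day 3 and lower at day 14 described 19 of 19 sterol genes, 5 of 10 fatty acid genes and 23.9% of all genes.

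**Figure D1:**
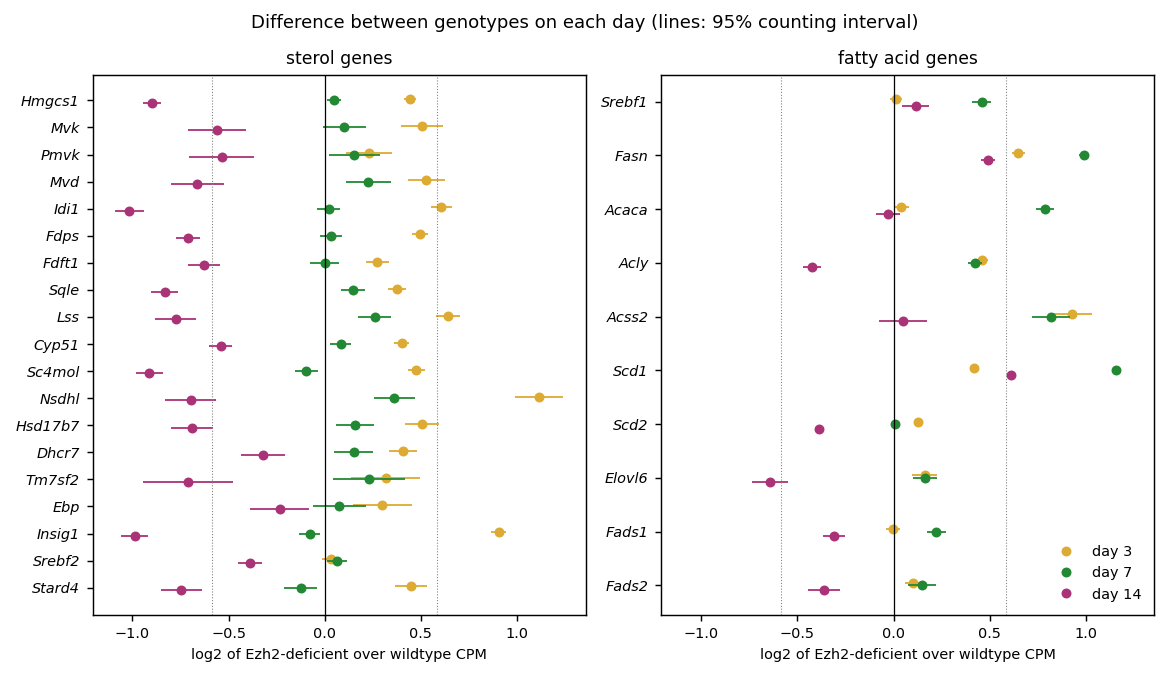
Log2 ratio of Ezh2-deficient over wildtype CPM for each gene (rows) on days 3, 7 and 14 (colours), with the 95% counting interval as a line and dotted lines at 1.5-fold. For the sterol genes the day 3 points lie at or right of 0.03 and the day 14 points at or left of -0.24, while in the right panel Scd1 and Fasn lie right of 0 on all 3 days.

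The first sterol enzymes make mevalonate and turn it into isoprenoids. Hmgcs1 (chr13:119690462-119708077), which condenses acetyl units into the precursor of mevalonate, was 382 CPM in wildtype and 519 CPM in Ezh2-deficient cells at day 3, 289 and 299 CPM at day 7, and 434 and 233 CPM at day 14. Its wildtype level was highest at day 14, the day on which its Ezh2-deficient level was lowest. Mvk, the kinase of mevalonate, was 34.5 and 49.0 CPM at day 3, 33.0 and 35.4 CPM at day 7, and 33.2 and 22.6 CPM at day 14, so that its wildtype libraries stayed between 33.0 and 34.5 CPM while the Ezh2-deficient libraries spanned 22.6 to 49.0 CPM. Pmvk, the next kinase, lay between 18.0 and 35.6 CPM, and Mvd, which makes isopentenyl diphosphate, between 26.0 and 62.1 CPM, each highest in Ezh2-deficient cells at day 3 and lowest in them at day 14. Idi1 (chr13:8885606-8892396), the isomerase of that product, was 128 and 195 CPM at day 3, 119 and 121 CPM at day 7, and 165 and 81.5 CPM at day 14. Its day 14 ratio of 0.494 (counting interval 0.469 to 0.520) was the lowest of any of the 29 genes on any day. Fdps (chr3:89093588-89101967), which joins the isoprenoid units into farnesyl diphosphate, was 232 and 328 CPM at day 3, 137 and 141 CPM at day 7, and 197 and 120.1 CPM at day 14. Per length, on the authors' RPKM scale, Fdps had the highest mean level of the 19 sterol genes over the 6 libraries (106 RPKM) and Tm7sf2 the lowest (7.24 RPKM).

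The next 3 enzymes make the sterol ring. Fdft1 (chr14:63145150-63177793), the squalene synthase that commits isoprenoids to sterols, was 119 CPM in wildtype and 144 CPM in Ezh2-deficient cells at day 3, 77.0 CPM in both at day 7, and 107 and 68.9 CPM at day 14. Sqle, the squalene epoxidase and a rate-limiting step, was 179 and 233 CPM at day 3, 109.6 and 121 CPM at day 7, and 165 and 92.6 CPM at day 14. Lss (chr10:76531627-76553934), which closes the ring to lanosterol, was 101 and 157 CPM at day 3, 56.8 and 67.9 CPM at day 7, and 69.9 and 40.8 CPM at day 14. In each of the 3 the Ezh2-deficient library was the highest of all 6 at day 3 and the lowest of all 6 at day 14.

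From lanosterol to cholesterol the steps remove methyl groups and move or reduce bonds. Cyp51 (chr5:4080674-4104697), the lanosterol demethylase, was 270.3 CPM in wildtype and 356 CPM in Ezh2-deficient cells at day 3, 143 and 151 CPM at day 7, and 208 and 143 CPM at day 14. Sc4mol (chr8:64718145-64733578), a methyl oxidase of the sterol ring, was 206 and 287 CPM at day 3, 118 and 110.1 CPM at day 7, and 174 and 92.3 CPM at day 14. Nsdhl (chrX:72918521-72958528), the dehydrogenase that works after Sc4mol, was 21.9 and 47.4 CPM at day 3, 34.9 and 44.8 CPM at day 7, and 45.6 and 28.1 CPM at day 14. Nsdhl had the largest day 3 ratio of the 29 genes, 2.16 (counting interval 1.98 to 2.36), and it was the 1 sterol gene more than 1.5-fold higher in wildtype cells at day 7 than at day 3. Nsdhl and Ebp are on the X chromosome. Xist, the RNA of the inactive X, was 1065 and 842 CPM at day 3, 1129.8 and 677 CPM at day 7, and 1223 and 513 CPM at day 14, lower in the Ezh2-deficient library of each day, and its part in the values of Nsdhl and Ebp was not tested.

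Hsd17b7, which reduces the ketone left by Nsdhl, lay between 42.4 and 71.6 CPM in the 6 libraries. Dhcr7 (chr7:143823167-143848410), the last reductase of the pathway, was 77.3 CPM in wildtype and 102 CPM in Ezh2-deficient cells at day 3, 41.0 and 45.5 CPM at day 7, and 50.7 and 40.5 CPM at day 14. Its difference at day 14 (log2 ratio -0.32) was among the 3 smallest of the sterol genes, with Ebp (-0.24) and Srebf2 (-0.39). Tm7sf2, a sterol reductase, lay between 8.94 and 16.8 CPM. Ebp, the sterol isomerase, lay between 18.5 and 28.9 CPM and was highest in wildtype cells at day 14. Unlike the other sterol enzymes, Ebp had nearly the same level in the Ezh2-deficient libraries of all 3 days, from 22.8 to 24.6 CPM.

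Among the regulators and carriers, Insig1 (chr5:28071412-28078662), the sterol-sensing anchor of SREBP and itself a target of SREBP, was 238 CPM in wildtype and 445 CPM in Ezh2-deficient cells at day 3, 147 and 139 CPM at day 7, and 185 and 93.3 CPM at day 14. Its ratio went from 1.87 (counting interval 1.82 to 1.92) at day 3 to 0.504 (0.480 to 0.528) at day 14. Stard4, a carrier of cholesterol within the cell and an SREBP target, was 55.7 and 75.9 CPM at day 3, 61.2 and 56.1 CPM at day 7, and 71.1 and 42.4 CPM at day 14. Srebf2 (chr15:82147269-82204960), the gene of the sterol-side factor, was 238 and 243 CPM at day 3, 162 and 169 CPM at day 7, and 181 and 138 CPM at day 14. The genotypes of Srebf2 were thus within the counting error of each other at day 3, and the counting interval of that ratio included 1.

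**Figure D2:**
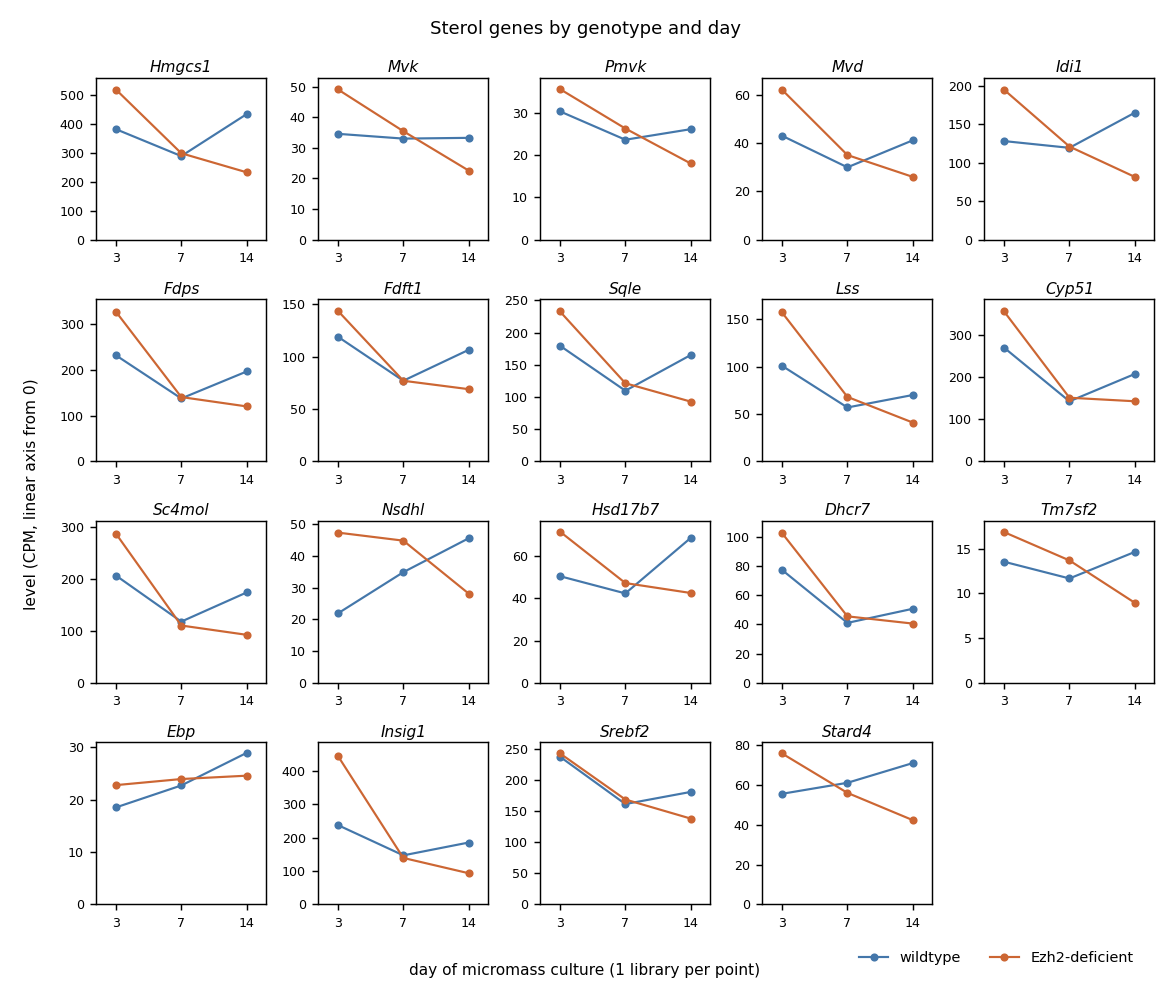
Level in CPM (linear axis from 0) of each of the 19 sterol genes against day of culture, with 1 library per point, blue for wildtype and orange for Ezh2-deficient. In all 19 panels the orange line starts above the blue line at day 3 and ends below it at day 14, as for Insig1 (445 against 238 CPM, then 93.3 against 185 CPM).

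Whether the genotype difference changed with day was tested in 1 model over all 6 libraries, as the change of the log2 difference per doubling of the day. The model leaves 1 residual degree of freedom, so the spread is taken largely from other genes. All 19 sterol genes had a negative change, with a median of -0.53, where 50.9% of all genes were negative. At an unadjusted p under 0.05 stood 18 of the 19, where 8.30% of all genes were negative at that level, and 4 passed in edgeR after Benjamini-Hochberg adjustment over all 16280 genes, all falling, as did 0.553% of all genes. In the other direction 0 of the 29 passed, as did 0.0614% of all genes. The 4 were Insig1 (-0.85 ± 0.07, SE, edgeR adjusted p = 0.0440), Nsdhl (-0.81 ± 0.09, edgeR adjusted p = 0.0440), Stard4 (-0.53 ± 0.07, edgeR adjusted p = 0.0488) and Sc4mol (-0.62 ± 0.08, edgeR adjusted p = 0.0492). Idi1 was next and did not pass (-0.72 ± 0.09, edgeR adjusted p = 0.0530), and Srebf2 had the smallest change of the 19 (-0.18 ± 0.09, edgeR adjusted p = 0.455). None of the 10 fatty acid genes passed, and 3 (Acss2, Acly and Elovl6) were negative at an unadjusted p under 0.05. Their median was -0.16, with 8 negative and 2 positive. The 4 passing genes lie close to the threshold: across 11 alternatives of scaling, filter, tool and coding of day, between 0 and 11 sterol genes passed, while all 19 were negative in each of them. Over all genes between 0 and 280 passed as falling in those settings.

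**Figure D3:**
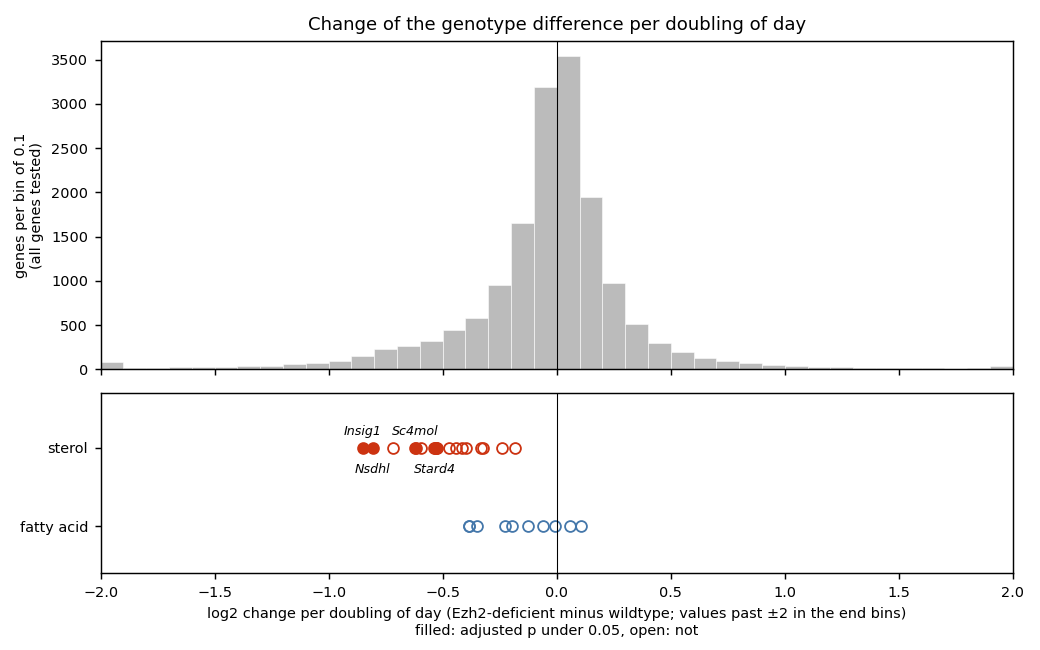
Upper panel, number of genes (of 16280 tested) by change of the genotype difference per doubling of day, in log2 bins of 0.1 with the end bins holding all values past 2 in size. Lower panel, the same value for the sterol and the fatty acid genes, filled where the adjusted p is under 0.05. All sterol points lie left of 0, between -0.85 and -0.18, and the fatty acid points between -0.38 and 0.11.

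Cell cycle genes shared the fall of the genotype difference with day, but not the course of the sterol genes from day 3 to day 7. The 16 cell cycle markers were all negative for the same change with day, and 8 of 16 passed (among them Ccnb1, Ccna2, Mki67 and Top2a), where 0.553% of all genes did in that direction. They were higher in the Ezh2-deficient library at day 3 in 16 of 16, and lower at day 7 and at day 14 in 16 of 16, with medians of 0.27, -0.64 and -1.20. Their summed level was 631 CPM in wildtype and 757 CPM in Ezh2-deficient cells at day 3, 1955 and 1298 CPM at day 7, and 1296 and 582 CPM at day 14. None was at 0 in any library. The summed level of the 16 sterol enzymes was 1907 and 2626 CPM at day 3, 1288 and 1359 CPM at day 7, and 1827 and 1083 CPM at day 14. At day 7 the 2 sums ran differently: the cell cycle sum was highest in both genotypes, and the wildtype sterol sum was lowest. Chondrocyte markers were also lower in Ezh2-deficient cells in 14 of 15 at day 7 and 14 of 15 at day 14, and 2 of 15 passed the test of the change with day. That change was negative in 14 of 15 adipocyte, 6 of 8 fibroblast, 4 of 6 smooth muscle and 3 of 5 endothelial markers. It was negative in 4 of 10 osteoblast and 3 of 12 macrophage markers, and of these lists only Tagln, of smooth muscle, passed. The part of dividing cells, of cartilage cells and of these other cells in the sterol values was not tested.

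The difference between genotypes shared by the 3 days was tested in a model with a term for each day, in which the 3 days serve in place of replicates. None of the 29 genes passed in edgeR, as 0.0123% of all genes did in either direction. The 19 sterol genes had 13 negative and 6 positive values with a median of -0.05, and 0 of them were at an unadjusted p under 0.05. The smallest p among them belonged to Srebf2 (-0.10 ± 0.11, SE, edgeR adjusted p = 0.746), Nsdhl (0.26 ± 0.33, edgeR adjusted p = 0.772) and Sc4mol (-0.17 ± 0.26, edgeR adjusted p = 0.810), and each of these 3 changed sign when 1 day was left out. Of the 10 fatty acid genes, 3 were higher at an unadjusted p under 0.05, namely Fasn (0.71 ± 0.12, edgeR adjusted p = 0.123), Scd1 (0.73 ± 0.16, edgeR adjusted p = 0.196) and Acss2 (0.60 ± 0.18, edgeR adjusted p = 0.280). Fasn and Scd1 passed in DESeq2, where 372 genes were higher and 235 lower of 15964. Both also passed in edgeR without the day 3 pair, where 383 were higher and 480 lower of 15808.

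At day 7, 16 of the 19 sterol genes were lower than at day 3 in wildtype cells (Nsdhl, Ebp and Stard4 were higher) and 18 of 19 in Ezh2-deficient cells (Ebp was higher). Of the 19, 6 fell from day 3 to day 7 in edgeR (Dhcr7, Cyp51, Srebf2, Fdps, Fdft1 and Sc4mol), a list median of -0.63, where 16.6% of all genes fell. The falls ran from -0.54 ± 0.14 for Srebf2 to -1.13 ± 0.31 for Sc4mol (edgeR adjusted p = 0.0304 and 0.0388). None rose, where 19.5% of all genes rose. In wildtype libraries 8 of 19 were lower past 1.5-fold at day 7 than at day 3, as were 11.8% of all genes, and in Ezh2-deficient libraries 12 of 19, as were 11.3% of all genes. From day 7 to day 14 all 19 were higher in wildtype, by a median log2 ratio of 0.39, and 3 (Hmgcs1, Sqle and Hsd17b7) were past 1.5-fold, as were 6.57% of all genes. Over the same days 18 of 19 were lower in Ezh2-deficient cells, by a median of -0.39, and 4 (Mvk, Lss, Nsdhl and Tm7sf2) were past 1.5-fold, as were 9.72% of all genes. Higher in wildtype and lower in Ezh2-deficient cells from day 7 to day 14 described 18 of 19 sterol genes, with Ebp the exception, 4 of 10 fatty acid genes and 14.3% of all genes. In the model that pools the genotypes, 0 of the 29 genes passed between day 14 and day 7, where 5.66% of all genes did in either direction. Lower at an unadjusted p under 0.05 stood 3 of the 29 (11.6% of all genes), the fatty acid genes Srebf1, Fasn and Elovl6. In DESeq2 Fasn and Srebf1 passed as lower, as did 881 of 15648 genes.

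Between day 3 and day 14, 4 of the 19 sterol genes fell in edgeR, a share near the 22.4% of all genes. They were Dhcr7 (-0.97 ± 0.18, SE, edgeR adjusted p = 0.0085), Srebf2 (-0.60 ± 0.14, edgeR adjusted p = 0.0178), Cyp51 (-0.84 ± 0.22, edgeR adjusted p = 0.0284) and Lss (-1.21 ± 0.33, edgeR adjusted p = 0.0307). The 2 genotypes contributed unequally: 18 of 19 were lower past 1.5-fold at day 14 than at day 3 in Ezh2-deficient cells, as were 15.7% of all genes, and 1 of 19 in wildtype, as were 15.0% of all genes.

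On the fatty acid side, the regulator Srebf1 had the largest fall of the 29 genes from day 3 to day 14 in the fit that pools the genotypes. Srebf1 (chr11:60199089-60220604) was 504 CPM in wildtype and 509 CPM in Ezh2-deficient cells at day 3, 153 and 210.2 CPM at day 7, and 119.8 and 129.7 CPM at day 14. It fell by 1.49 ± 0.14 on the log2 scale from day 3 to day 7 (edgeR adjusted p = 0.0014) and by 2.02 ± 0.14 from day 3 to day 14 (edgeR adjusted p = 0.000363). The levels of the genotypes overlapped, and the largest gap between them was the 1.37-fold ratio of day 7.

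The enzymes that supply acetyl-CoA differed in course. Acly (chr11:100476352-100528000), which makes cytosolic acetyl-CoA from citrate, was 460.0 CPM in wildtype and 633 CPM in Ezh2-deficient cells at day 3, 326 and 437 CPM at day 7, and 337 and 251 CPM at day 14. Like the sterol genes Acly was higher at day 3 and lower at day 14, but its ratio was still 1.34 at day 7. Acss2 (chr2:155518043-155562743), which makes acetyl-CoA from acetate, was 33.8 and 64.3 CPM at day 3, 35.9 and 63.4 CPM at day 7, and 37.0 and 38.2 CPM at day 14. Its wildtype level hardly moved, and its ratio went from 1.902 (counting interval 1.77 to 2.04) at day 3 to 1.03 (0.947 to 1.13) at day 14. Acaca (chr11:84195438-84401651), the carboxylase that makes malonyl-CoA, was 291 and 299 CPM at day 3, 156 and 269 CPM at day 7, and 152 and 149 CPM at day 14 and was past 1.5-fold at day 7 alone. Acaca and Acly fell from day 3 to day 14 (-0.97 ± 0.21 and -0.87 ± 0.24, SE, edgeR adjusted p = 0.0154 and 0.0299).

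Fasn and Scd1 were the 2 enzymes higher in Ezh2-deficient cells on all 3 days with ratios of 1.34 to 2.23. Fasn (chr11:120805958-120824547), the synthase that builds palmitate, was 378 CPM in wildtype and 592 CPM in Ezh2-deficient cells at day 3, 531 and 1056 CPM at day 7, and 436 and 612 CPM at day 14. Every Ezh2-deficient library was above every wildtype library. Fasn was the 1 gene of the 29 that rose from day 3 to day 7 (0.67 ± 0.15, SE, edgeR adjusted p = 0.0205). Scd1 (chr19:44394450-44407709), the desaturase that makes oleate, was 1202 and 1608 CPM at day 3, 978 and 2179 CPM at day 7, and 935 and 1430.2 CPM at day 14. Here too the genotypes did not overlap, and the day 7 ratio of 2.23 (counting interval 2.20 to 2.26) was the largest of any of the 29 genes on any day.

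Scd2 (chr19:44293676-44306862), a paralog of Scd1 that lies 87.588 kb away, behaved otherwise. It was 2447 CPM in wildtype and 2670.3 CPM in Ezh2-deficient cells at day 3, 1081 and 1086 CPM at day 7, and 1531 and 1171 CPM at day 14. Its genotypes overlapped, its day 7 ratio was 1.00, and it fell from day 3 to day 7 and to day 14 (-1.24 ± 0.17 and -0.93 ± 0.17, SE, edgeR adjusted p = 0.00455 and 0.00794). The 2 paralogs share sequence, so reads could have been split between them by the authors' counting. Per length, Scd2 had the highest mean level of the 10 fatty acid genes (244 RPKM) and Acss2 the lowest (13.0 RPKM).

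Elovl6, which lengthens palmitate, was 104 CPM in wildtype and 117 CPM in Ezh2-deficient cells at day 3, 105 and 118 CPM at day 7, and 87.6 and 56.1 CPM at day 14. Fads1 and Fads2, neighbouring desaturases that make polyunsaturated fatty acids, kept close to each other in course. Fads1 (chr19:10182888-10196872) was 374 and 373 CPM at day 3, 173 and 202 CPM at day 7, and 204 and 165 CPM at day 14. Fads2 (chr19:10064164-10101503) was 248.5 and 267 CPM at day 3, 81.8 and 90.6 CPM at day 7, and 99.3 and 77.3 CPM at day 14. Both fell from day 3 to day 7 (-0.995 ± 0.144 and -1.58 ± 0.15, SE, edgeR adjusted p = 0.00568 and 0.00152) and remained below day 3 at day 14 (-1.02 ± 0.15 and -1.55 ± 0.15, edgeR adjusted p = 0.00366 and 0.0010). In all, 4 fatty acid genes fell from day 3 to day 7, where 16.6% of all genes fell, and 6 from day 3 to day 14, where 22.4% did. In Ezh2-deficient cells 7 of the 10 were lower past 1.5-fold at day 14 than at day 7, against 9.72% of all genes, and in wildtype 0 of 10, against 6.38%.

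**Figure D4:**
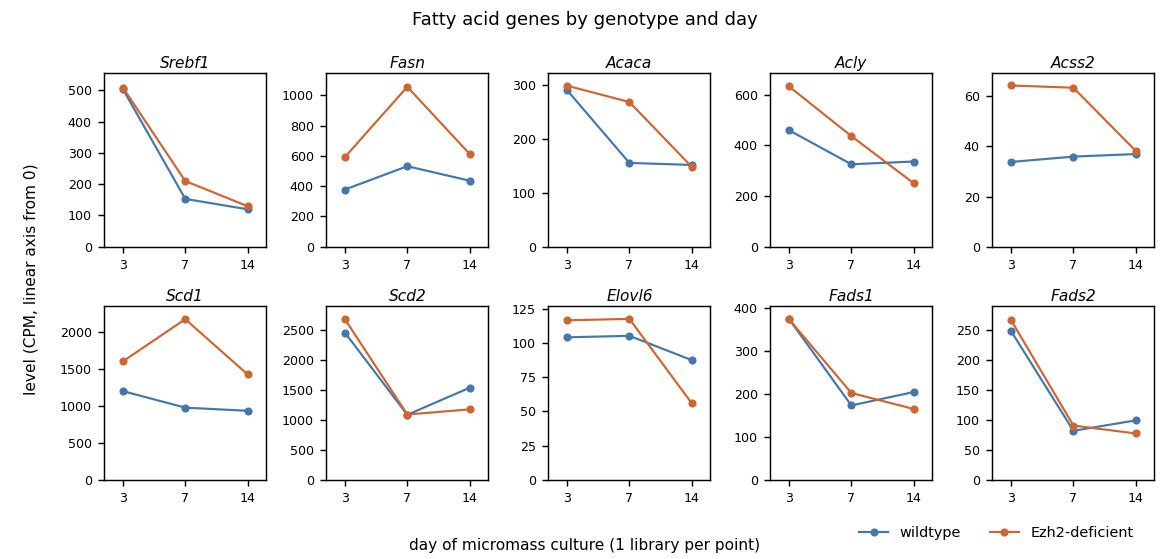
Level in CPM (linear axis from 0) of each of the 10 fatty acid genes against day of culture, with 1 library per point, blue for wildtype and orange for Ezh2-deficient. Fasn and Scd1 peak at day 7 in the Ezh2-deficient cells (1056 and 2179 CPM) with the orange line above the blue line throughout, while Srebf1, Scd2, Fads1 and Fads2 drop after day 3 in both genotypes.

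Markers of fat cells were mostly higher in Ezh2-deficient cells beside these enzymes. Of the 15 listed, 1 was lower at day 3, 2 at day 7 and 4 at day 14. Cidea was lower on each day and Cd36 at days 7 and 14. The 15 adipocyte markers summed to 170.0 CPM in wildtype and 344 CPM in Ezh2-deficient cells at day 3, 894 and 1300.3 CPM at day 7, and 566 and 685 CPM at day 14. For the shared genotype difference 14 of 15 were positive and 11 were higher at an unadjusted p under 0.05, as were 6.82% of all genes, but 0 passed in edgeR. Markers of other cell types were higher too at an unadjusted p under 0.05, 9 of 10 for osteoblasts and 4 of 6 for smooth muscle, and none of them passed. The osteoblast sum was 2416 and 3680 CPM at day 3 and 77013 and 152001 CPM at day 14. Fabp4, a lipid carrier of fat cells, was 8.16 and 45.2 CPM at day 3, 96.0 and 225 CPM at day 7, and 45.0 and 87.2 CPM at day 14. Lep, the fat cell hormone, was listed at 0 in wildtype cells at day 3 and was at most 1.17 CPM in any library. The 9 fatty acid enzymes summed to 5538 and 6623 CPM at day 3, 3468 and 5500 CPM at day 7, and 3818 and 3950 CPM at day 14. In Ezh2-deficient cells the adipocyte sum and the levels of Fasn and Scd1 were each highest at day 7. In wildtype cells the adipocyte sum and Fasn were also highest at day 7. Scd1 was there highest at day 3, at 1202 CPM against 978 CPM at day 7. The sum of the 9 enzymes was highest at day 3 in both genotypes. The part of fat cells in the fatty acid values was not tested.

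**Figure D5:**
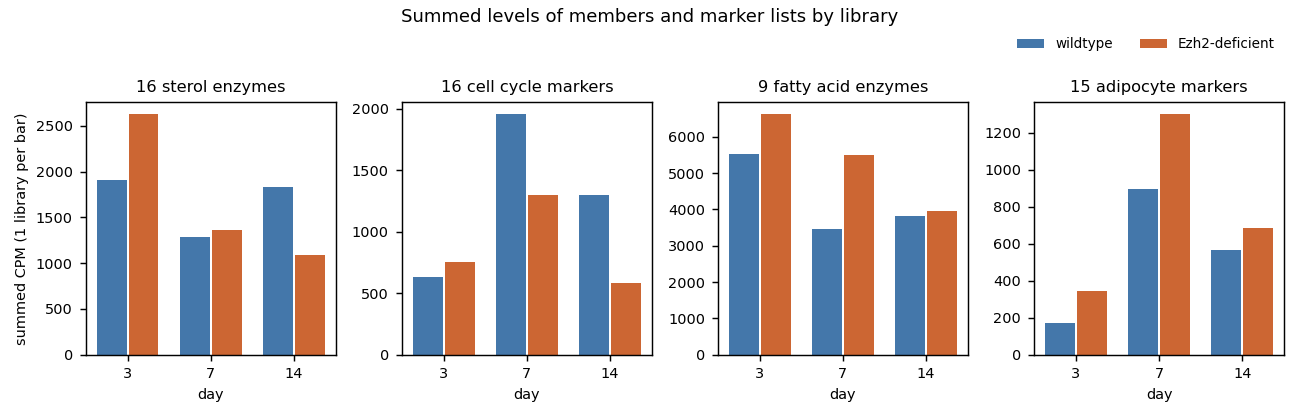
Summed CPM in each library (bars, 1 library per bar, axes from 0) of the 16 sterol enzymes, the 16 cell cycle markers, the 9 fatty acid enzymes and the 15 adipocyte markers, by day and genotype. The sterol sum goes from 1907 against 2626 CPM at day 3 to 1827 against 1083 CPM at day 14, and for the adipocyte sum the Ezh2-deficient bar is the taller of each pair.

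Other genes of the same and related pathways, taken from lists by function, were counted for each test. Among further genes of sterol and isoprenoid synthesis and of electron transfer, Ggps1, which makes geranylgeranyl diphosphate, fell from day 3 to day 7 (-0.46 ± 0.12, SE, edgeR adjusted p = 0.0337). Sc5d, a sterol desaturase, also fell (-0.70 ± 0.19, edgeR adjusted p = 0.0380), as did Fdx1, a carrier of electrons to cytochrome P450 enzymes (-0.44 ± 0.12, edgeR adjusted p = 0.0360). Cyb5r3, a reductase that passes electrons to sterol and fatty acid desaturases, rose (0.61 ± 0.12, edgeR adjusted p = 0.0151).

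Of 20 genes of sterol uptake, transport and SREBP processing, 0 passed for the genotype difference or its change with day. From day 3 to day 7, 4 of the 20 rose, a share near the 19.5% of all genes, and 9 fell, where 16.6% of all genes fell. These were led by Lipa, the lysosomal lipase that frees cholesterol (2.29 ± 0.13), and Soat1, which esterifies it (-1.11 ± 0.09; edgeR adjusted p = 0.000441 and 0.00117).

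Of 14 genes of sterol efflux and LXR signalling, 8 rose and 0 fell from day 3 to day 7, where 19.5% of all genes rose and 16.6% fell. From day 3 to day 14, 9 rose and 1 fell, where 23.2% of all genes rose and 22.4% fell. Macrophage markers rose over the same days, 12 of 12 in both comparisons. Their sum was 158 CPM in wildtype and 122 CPM in Ezh2-deficient cells at day 3, 1596 and 1636 CPM at day 7, and 2406 and 3281 CPM at day 14, and the part of macrophages in the efflux values was not tested. Abca1, the main cholesterol exporter, rose by 1.55 ± 0.13 and Abcg1, its partner, by 2.73 ± 0.18 from day 3 to day 7 on the log2 scale (SE, edgeR adjusted p = 0.0012 and 0.00064). Pltp and Apod, lipid carriers, rose by 1.80 ± 0.11 and 4.21 ± 0.24 (edgeR adjusted p = 0.000526 and 0.00045). None of the 14 passed for the genotype difference or its change with day.

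Of 36 further genes of fatty acid synthesis and lipid storage, 0 passed for the genotype difference, though 11 were higher and 1 was lower before adjustment, at p under 0.05, as were 6.82% and 6.33% of all genes. Thrsp, a lipogenic regulator, came closest (1.5 ± 0.1, SE, edgeR adjusted p = 0.0566), with 2.40 and 7.56 CPM at day 3, 15.6 and 45.9 CPM at day 7, and 6.27 and 15.5 CPM at day 14. Acsl1, Pnpla3 and Agpat2, enzymes of fatty acid activation and lipid storage, followed (0.58, 0.90 and 0.80; edgeR adjusted p = 0.0799, 0.111 and 0.114). Of the 36, 6 rose and 9 fell from day 3 to day 7, where 19.5% of all genes rose and 16.6% fell. Of 23 genes of fatty acid oxidation, 8 rose and 1 fell over the same days (19.5% and 16.6% of all genes). Among those that rose was Cpt1a, which brings fatty acids into mitochondria (1.65 ± 0.09, edgeR adjusted p = 0.00043), and 0 of the 23 passed for the genotype difference.

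All 29 genes overlapped the gene of that name in the GENCODE annotation of mm10. Another annotated gene overlapped 15 of them, in 9 cases on the opposite strand (such as Ctsb beside Fdft1, Akap9 beside Cyp51 and Rai1 beside Srebf1), and whether counting used strand is not given in the sources used here. Hmgcs1 lies 281.324 kb from Nnt, a gene that differs between C57BL/6 strains, which was 57.7 CPM in wildtype and 24.0 CPM in Ezh2-deficient cells at day 3, 54.9 and 22.7 CPM at day 7, and 53.6 and 19.7 CPM at day 14. Nnt was lower in the Ezh2-deficient library of each day, and the part of strain in the genotype differences was not tested.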

How the data were processed

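RNA was sequenced from 6 libraries, 1 per genotype and day, and the deposited table gives a raw read count per gene, per the file headers. The authors' deposited RPKM values rest on a coding length per gene, per the file headers, and were used only to compare levels between genes. CASAVA 1.9, TopHat 12.0.6, HTSeq and the build mm10 are listed without roles in the submitters' processing notes, and strandedness is not given in the sources used here. Every count was even, so 2 counts were taken as 1 fragment in counting intervals. Columns without a sample numbered 0.

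The members and lists were chosen with earlier results of these data known. Tests used edgeR 4.0.16 in R 4.3.3 on the counts of all 6 libraries (quasi-likelihood F test, two-sided, TMM factors of 0.935 to 1.09, filterByExpr with a minimum count of 10, Benjamini-Hochberg adjustment over 16280 genes, threshold 0.05). The model held day as a factor and genotype, with 2 residual degrees of freedom. For the change with day, genotype multiplied by log2 day (centred) was a further term, which left 1. Each SE was derived from the log2 change and its F statistic. The labels do not say that libraries came from separate cultures or animals, so p-values measure only the spread between these libraries. Only the test of the shared genotype difference was first checked on simulated data, not the tests between days or of the change with day. Alternatives were RLE, upper-quartile or no factors, no filter, a filter of 1 CPM in 3 libraries, DESeq2 1.42.0, limma-voom (limma 3.58.1), robust dispersion, halved counts and leaving out a day. Linear and ranked day were added after seeing the data. Values of all 6 libraries are printed for the genes that pass a test, the 3 per group with the smallest p for genotype, the 3 largest differences of a single day in each direction, the regulators and the paralogs, and for some others chosen after their values were seen. Of other lists at most the 4 genes with the smallest p in a test are named, with Sc5d added, and some results of these lists are not reported here.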

Additional observations from a re-analysis of the deposited data

Results flagged for a closer look

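The difference between genotypes was called as falling with day in 4 of the 19 sterol genes, as in 0.553% of all genes. The test was of its change per doubling of day (log2, edgeR, adjusted over all genes). The values were -0.85 for Insig1 (adjusted p = 0.0440), -0.81 for Nsdhl (adjusted p = 0.0440), -0.53 for Stard4 (adjusted p = 0.0488) and -0.62 for Sc4mol (adjusted p = 0.0492). In each of the 4 the Ezh2-deficient library was above the wildtype library at day 3 and below it at day 14. The 4 lie close to the threshold, and the model leaves 1 residual degree of freedom. With the stricter filter, halved counts or linear day 0 sterol genes passed. No group had 4 or more libraries, so no library could be checked against the others of its group for standing apart.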

How the results depend on the processing

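No paired analysis was possible because each genotype and day has 1 library and no replicate numbers are given. The model with a term for each day already sets the genotypes side by side within a day. The change of the genotype difference with day could not be refitted without a day, since no degrees of freedom are left. Its 4 passing sterol genes became 7 with total counts only, 2 with upper-quartile factors, 8 without a filter and 11 in DESeq2. Over all genes the 90 falling calls became 250, 71, 220 and 280 in those settings. Without a filter 19641 genes were tested, and in DESeq2 13439 were adjusted. With the stricter filter, halved counts and linear day 0 sterol genes and 0 of all genes passed (before adjustment, at p under 0.05, 653 up and 1226 down, 797 up and 1298 down, and 699 up and 1235 down). For the genotype difference, 2 fatty acid genes passed in DESeq2 and 2 without the day 3 pair, against 0 without the day 7 or day 14 pair. Over all genes 372 were higher and 235 lower in DESeq2, and 383 and 480 without the day 3 pair. Without the day 7 or day 14 pair 0 of all genes passed. Leaving out 1 day at a time, Srebf2 ranged from -0.18 to 0.054 (the latter without day 14), Nsdhl from -0.16 (without day 3) to 0.74, and Sc4mol from -0.50 to 0.197 (the latter without day 14), and none passed. The 6 sterol genes that fell from day 3 to day 7 became 2 with total counts only, where the median of all genes moved from -0.02 to 0.19 and the calls from 3172 higher and 2709 lower to 4316 and 1250. They became 13 without the day 14 pair, where 2665 of 16012 genes fell. From day 3 to day 14 the 4 became 2 with total counts only, 8 with upper-quartile factors, 9 in DESeq2 and 8 in limma-voom. Over all genes the 3645 that fell became 2863, 3991, 3406 and 3683 in those settings. From day 7 to day 14, 2 fatty acid genes fell in DESeq2, where 881 of 15648 genes fell. With a limit of 2-fold in place of 1.5-fold, the day 3 counts became 1 sterol and 0 fatty acid genes, the day 7 count 1 fatty acid gene, and the day 14 counts 1 sterol gene lower, 0 fatty acid genes higher and 0 lower. On total-count CPM 0 fatty acid genes were higher past 1.5-fold at day 14. The share of all genes was not counted at 2-fold or on total-count CPM. These counts therefore cannot be read against it. The causes were not tested. Under the 4 scalings all 19 sterol genes were higher at day 3 and lower at day 14, and 15 or 16 were higher at day 7. With 1 library per group, the spread between cultures of 1 day was not measured.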
